A study of Mus musculus with 16 samples.

Results

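Rearranged T cell receptor β (TCRβ) chain genes of T cells from tumors were divided by reading frame, and the in-frame set was compared with the out-of-frame set within each of 16 mice. Each unique nucleotide rearrangement was counted once, whatever its number of templates, and a template is the starting molecule that the sequencing service counted. In all, 126344 in-frame rearrangements without a stop codon and 70245 out-of-frame rearrangements were compared, 196589 of the 198953 rearrangements measured. The remaining 2364 were in frame with a stop codon and served only as a second unproductive class.

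Per the labels, the samples were T cells taken by magnetic CD90.2 selection from tumors of female C57BL/6 mice, and the study's methods for TCRβ sequencing name the tumors but no selection. KPC.Luc, a mouse line of pancreatic ductal adenocarcinoma that expresses luciferase, had been implanted under the skin. Treatment lasted 10 days in 4 groups of 4 mice. Control mice received scrambled peptide with isotype IgG, ANT008 mice received 10 µg of the VIP receptor (VIP-R) antagonist ANT008 daily with isotype IgG, anti-PD-1 mice received 200 µg of anti-PD-1 every 3 days with scrambled peptide, and the combination group received ANT008 with anti-PD-1. All 16 mice carried the same tumor line. The labels name RNA and the study's text names RNA in one place and DNA in another, so whether a template was a transcript or a gene copy cannot be told apart.

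A TCRβ gene is joined from a V, a D and a J segment. Nucleases trim the segment ends, and terminal transferase adds untemplated bases between V and D (n1) and between D and J (n2). Joins that shift the reading frame cannot make a β chain, and a developing T cell that makes one can survive if its other allele is joined in frame. Out-of-frame rearrangements therefore travel in mature T cells without being selected on the receptor they encode. An in-frame one can encode the chain on which its cell passed β selection and thymic selection, though not every in-frame join need do so. The third complementarity-determining region (CDR3), which spans this junction, contacts the antigen peptide. Only the TCRβ locus was measured, so other markers of T cells could not be examined in these values.

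The V ends below were read from untrimmed rearrangements and start at the codon of the conserved cysteine. They are shown with the germline D segments because these genes are named in the results below. In Trbv4 the capitals mark an in-frame stop codon inside the germline coding end, and in Trbv24 they mark the first 2 bases of a codon that becomes a stop if the next base is a or g.
Trbv4: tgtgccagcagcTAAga
Trbv24: tgtgccagcagtctgTA
Trbv12-1 and Trbv12-2: tgtgccagctctctc
Trbv22: tgtgccagcagttgtc
Trbd1: gggacagggggc
Trbd2: gggactgggggggc

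Each mouse gave between 2526 and 13939 in-frame rearrangements, with a median of 7786, and between 1696 and 7295 out-of-frame ones, with a median of 4477. The out-of-frame share was 36.5% ± 2.02 of rearrangements (SD, n = 16), but 28.4% ± 4.08 of templates. In-frame rearrangements carried more templates each, by 0.54 ± 0.29 on the log2 scale of the mean (higher in 16 of 16 mice). Rearrangements of 1 template made up 73.5% ± 4.96 of the in-frame and 78.1% ± 3.28 of the out-of-frame set (76.4% of the latter without the close neighbours described next). Out-of-frame CDR3 lengths were 2 bases over a multiple of 3 in 52.5% ± 1.02 and 1 base over in the rest.

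A large part of the out-of-frame set lay close to in-frame rearrangements of the same mouse. In each mouse, 10.4% to 28.2% of out-of-frame junctions (median 19.8%) differed by 1 inserted or deleted base from an in-frame junction with the same V and J gene. Against the in-frame set of another mouse the same share averaged 1.09%, and no pair of different mice exceeded 2.62%. In 53.6% ± 5.88 of these close pairs the in-frame junction had more templates. The rest were not divided into ties and pairs in which the out-of-frame junction had more. These close out-of-frame junctions are called neighbours here. An insertion or deletion error in amplification or sequencing would leave such pairs as well, and its part in each result was not tested. Each result below is given with all out-of-frame rearrangements. Where it was also computed without the neighbours and moved by more than 1.5 times or changed its direction, that value is given as well.

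**Figure D1:**
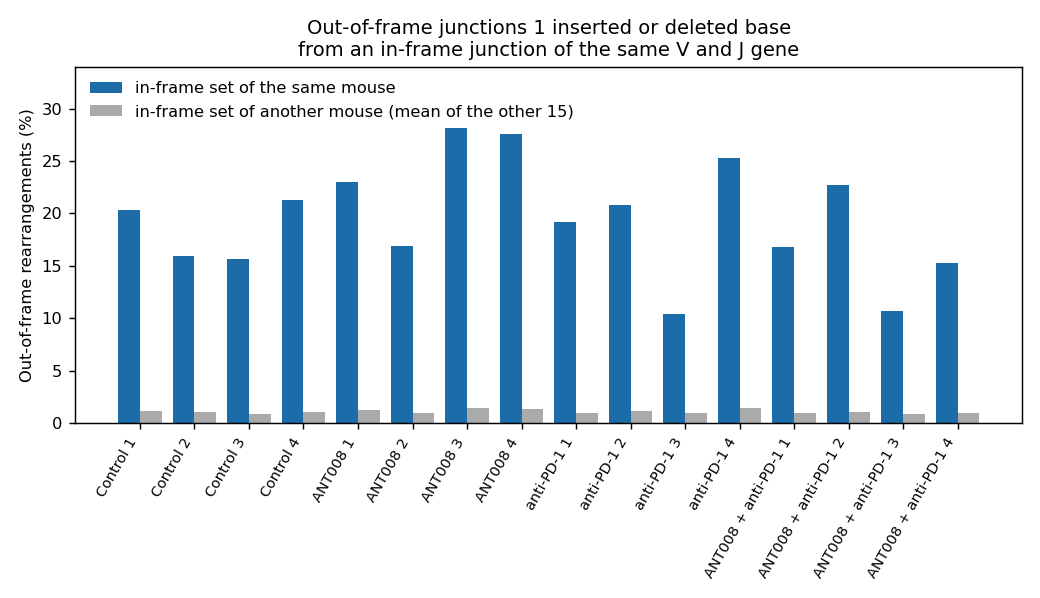
Share of out-of-frame rearrangements, in percent, that lay 1 inserted or deleted base from an in-frame junction of the same V and J gene, for each of the 16 mice. Blue bars compare with the in-frame set of the same mouse (10.4% to 28.2%) and grey bars with that of another mouse (mean over the other 15 mice, 1.09% on average).

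The most widely shared junctions show the same closeness. The 3 most widely shared out-of-frame junctions are printed with 1 of the 6 found in 4 mice, because 2 of these 4 differ from an in-frame one in the length of a run of g alone. Capitals mark the bases between V and J, and the number of mice follows each name.
In frame, Trbv5 with Trbj2-7, 12 mice: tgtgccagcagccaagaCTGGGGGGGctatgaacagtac
Out of frame, Trbv5 with Trbj2-7, 7 mice: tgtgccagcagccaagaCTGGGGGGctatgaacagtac
Out of frame, Trbv5 with Trbj2-7, 5 mice: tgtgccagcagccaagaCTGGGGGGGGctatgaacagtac
Out of frame, Trbv16 with Trbj2-7, 6 mice: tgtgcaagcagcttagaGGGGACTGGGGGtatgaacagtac
Out of frame, Trbv13-1 with Trbj2-7, 4 mice: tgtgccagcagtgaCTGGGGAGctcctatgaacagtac
In frame, Trbv5 with Trbj1-1, 12 mice: tgtgccagcagccaagacacagaagtcttc

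Of the 7 mice with the shorter Trbv5 out-of-frame junction, 6 also held an in-frame neighbour of it. For the longer Trbv5 junction this held in 5 of 5 mice, for the Trbv16 junction in 6 of 6 and for the Trbv13-1 junction in 4 of 4. It held in 4 of 4 mice for each of the 6 out-of-frame junctions found in 4 mice. The widest shared in-frame junctions held few or no added bases, and the Trbv5 to Trbj1-1 join had neither n1 nor n2 bases nor an assigned D gene. Junctions found in at least 1 other mouse made up 6.54% ± 1.39 of the in-frame and 1.46% ± 0.47 of the out-of-frame junctions of a mouse. Corrected for the number of junction pairs that could match, 1.16 ± 0.31 in-frame and 0.32 ± 0.093 out-of-frame junctions were shared per 1000000 pairs, and the in-frame value was the higher in 16 of 16 mice. These shares are descriptions, since mice share partners in the pairs, and they are given with the neighbours only.

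CDR3 lengths were more tightly spread in frame. The SD of the CDR3 length within a mouse ranged from 4.29 to 4.57 nt in frame (median 4.45) and from 4.82 to 5.15 nt out of frame (median 4.95). The ranges did not overlap, and the in-frame SD was the lower in 16 of 16 mice, by 0.51 ± 0.12 nt. By an exact two-sided permutation test that flips the sign of each mouse's difference, p = 3.05e-05, the smallest that 16 mice allow, and the Benjamini-Hochberg adjusted p over the 8 junction measures was 3.49e-05. The mean length was 42.0 ± 0.19 nt in frame and 42.3 ± 0.12 nt out of frame, lower in frame by 0.33 ± 0.18 nt in 16 of 16 mice (adjusted p = 3.49e-05, same permutation test). Without the neighbours the difference in SD was -0.62 nt and that in mean length -0.23 nt, both still past the threshold.

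The tighter spread came from both ends of the distribution. Out-of-frame lengths were placed at the nearest multiple of 3 so that both frames could be set side by side. Lengths of 42 nt, the most frequent, made up 29.8% ± 0.73 of in-frame and 26.6% ± 0.86 of out-of-frame rearrangements. Lengths of 36, 39 and 42 nt were more frequent in frame in 16 of 16 mice. Lengths of 48 nt and above were less frequent in frame in 16 of 16 mice in every 3-nt step, with 9.87% ± 0.81 against 12.5% ± 0.38 at 48 nt. Lengths of 45 nt differed by -0.92 ± 0.76 percentage points, lower in frame in 14 of 16 mice, and by -0.53 points in 11 of 16 mice without the neighbours. Lengths of 51 nt made up 3.06% ± 0.30 in frame and 4.49% ± 0.34 out of frame. At the short end, lengths of 27 nt and under held 0.244% ± 0.062 in frame and 0.789% ± 0.114 out of frame. The 33-nt step was the only one of the 11 not past the threshold (adjusted p = 0.613, exact permutation test), at 3.68% ± 0.31 in frame and 3.75% ± 0.45 out of frame, and without the neighbours it was lower in frame as well (3.68% against 4.25%, adjusted p = 0.00387, exact permutation test).

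**Figure D2:**
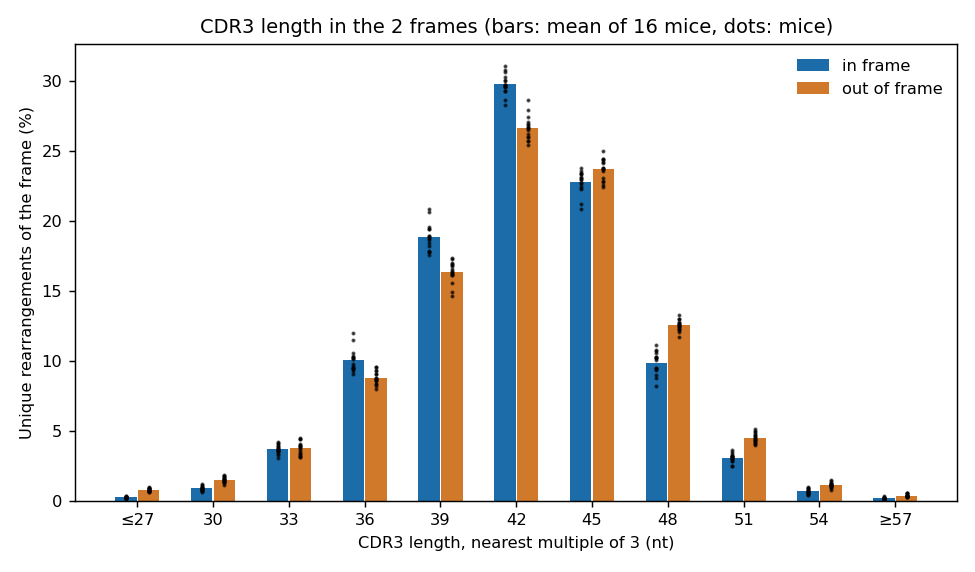
CDR3 length (nt, out-of-frame lengths placed at the nearest multiple of 3) against the share of unique rearrangements of that frame (percent). Bars are means of 16 mice and dots are mice. In-frame bars are higher at 36, 39 and 42 nt and lower from 45 nt upward and at 30 nt and under.

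Untemplated additions were fewer in frame on both sides of the D segment. The mean number of n1 bases ranged from 1.72 to 1.95 in frame (median 1.84) and from 2.00 to 2.39 out of frame (median 2.18), with no overlap between the frames. The mean number of n2 bases ranged from 1.69 to 1.78 in frame (median 1.71) and from 1.84 to 2.05 out of frame (median 1.97), again without overlap. The in-frame value was the lower in 16 of 16 mice for both, by 0.35 ± 0.12 n1 bases and 0.24 ± 0.059 n2 bases (adjusted p = 3.49e-05 for each, exact permutation test). Rearrangements with neither kind of base made up 8.89% ± 0.66 in frame and 7.75% ± 0.63 out of frame, higher in frame in 16 of 16 mice. Weighted by templates, this last difference was 2.31 percentage points and missed the threshold (adjusted p = 0.0564, exact permutation test). Junctions with more than 8 added bases in all were 3.62% ± 0.37 of in-frame and 6.73% ± 0.97 of out-of-frame rearrangements.

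The composition of the added bases also differed between the frames. Guanine and cytosine made up 67.0% ± 0.51 of in-frame and 65.4% ± 0.75 of out-of-frame n1 bases, higher in frame in 16 of 16 mice. For n2 bases the shares were 51.6% ± 0.58 and 54.6% ± 1.38, lower in frame in 16 of 16 mice. Without the neighbours the n2 share was 51.4% out of frame, and the difference did not pass the threshold (adjusted p = 0.676, exact permutation test), while the n1 share stayed higher in frame in 15 of 16 mice (67.0% against 65.8%).

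V segments were trimmed less in frame. The mean V deletion ranged from 2.55 to 2.73 nt in frame (median 2.64) and from 2.86 to 3.25 nt out of frame (median 3.08). The frames did not overlap, and the difference was -0.42 ± 0.12 nt, lower in frame in 16 of 16 mice (adjusted p = 3.49e-05, exact permutation test). Untrimmed V ends made up 23.3% ± 0.78 in frame and 23.0% ± 0.74 out of frame, a difference of 0.29 ± 0.96 percentage points that did not pass the threshold (adjusted p = 0.245, exact permutation test). Deep deletions differed more clearly. More than 10 deleted V bases were found in 0.398% ± 0.105 of in-frame and 2.39% ± 0.73 of out-of-frame rearrangements. Without the neighbours the last value was 1.52%, and it still exceeded the in-frame share in 16 of 16 mice.

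J trimming had no settled direction. The mean J deletion was 2.84 ± 0.051 nt in frame and 2.92 ± 0.093 nt out of frame, lower in frame in 14 of 16 mice (difference -0.072 nt, adjusted p = 0.000122, exact permutation test). Without the neighbours the sign turned, to 0.069 nt more in frame (adjusted p = 0.000366, exact permutation test), and it turned as well when rearrangements were weighted by templates (0.297 nt). D segments, counted over both ends, lost 5.56 ± 0.051 nt in frame and 5.39 ± 0.056 nt out of frame, more in frame in 16 of 16 mice (difference 0.17 ± 0.084 nt), and 0.072 nt more without the neighbours. At the 5′ end of D the difference was -0.054 nt with the neighbours and 0.114 nt without them, and at the 3′ end it was 0.219 nt and -0.042 nt, so the ends changed direction.

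**Figure D3:**
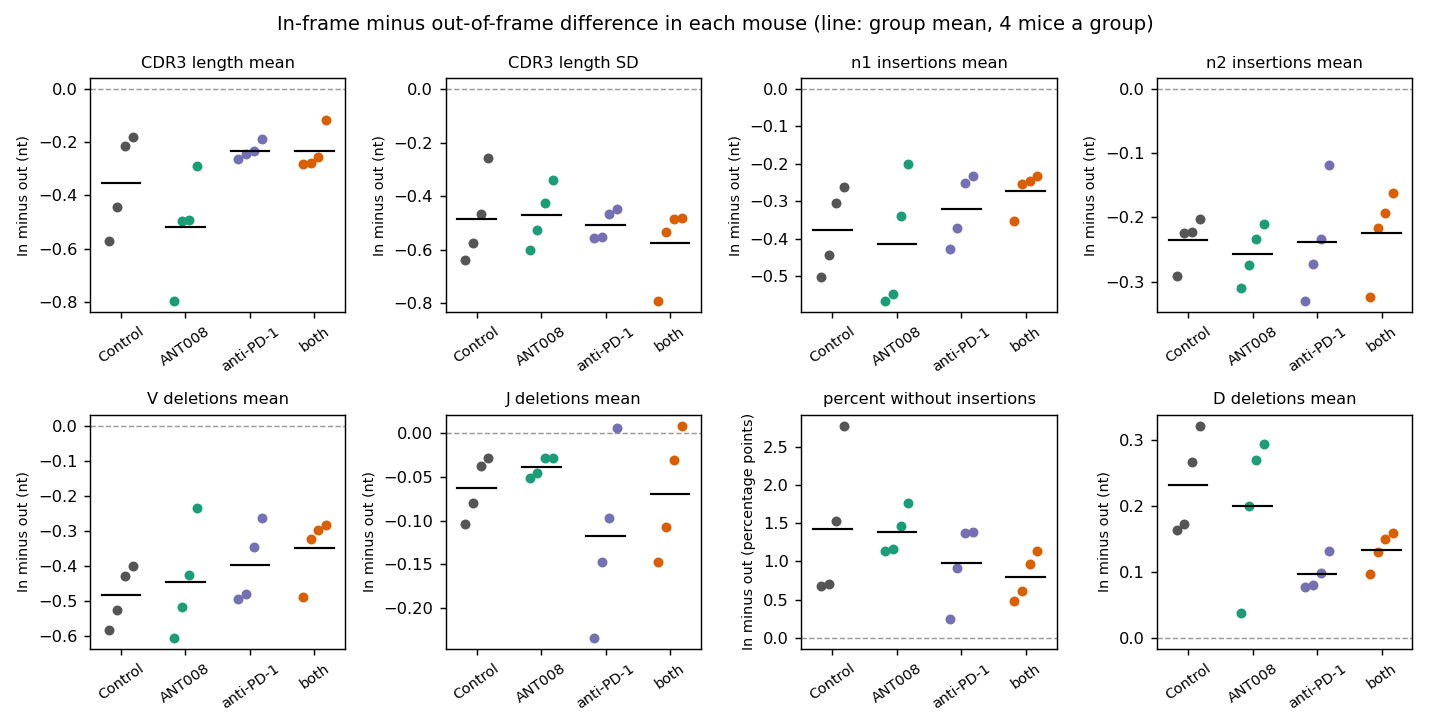
In-frame minus out-of-frame difference in each mouse for 8 junction measures (nt, and percentage points for rearrangements without added bases), by treatment group of 4 mice. The label "both" stands for ANT008 with anti-PD-1, black lines are group means, and the dashed line is 0. Points lie on 1 side of 0 in 16 of 16 mice for 7 measures and in 14 of 16 for J deletions.

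Within V genes, 20 had at least 10 rearrangements of each frame in every mouse. Of these, 14 (70%) were trimmed less in frame, 1 (5%) was trimmed more, and 5 did not pass the threshold (exact permutation test with Benjamini-Hochberg adjustment). Trbv19 lost 3.06 ± 0.071 nt in frame and 4.01 ± 0.39 nt out of frame, and Trbv5 lost 1.90 ± 0.10 and 2.63 ± 0.38 nt. With the neighbours left out, the out-of-frame losses were 3.56 nt for Trbv19 and 2.19 nt for Trbv5. The difference then shrank from -0.95 to -0.495 nt for Trbv19 and from -0.73 to -0.29 nt for Trbv5, both still past the threshold. The exception was Trbv4, which lost 4.71 ± 0.13 nt in frame and 3.29 ± 0.15 nt out of frame, 1.42 ± 0.14 nt more in frame in 16 of 16 mice. Within J genes, 12 had enough rearrangements, of which 0 (0%) were trimmed more in frame and 3 (25%) less. These were Trbj2-1 (-0.31 nt), Trbj1-4 (-0.21 nt) and Trbj2-7 (-0.20 nt). Without the neighbours 1 J gene was trimmed less and 2 more, and the V counts were 14 and 1. Trbv17 (-0.33 nt) was then among the V genes called, and Trbv2 (0.0032 nt) was not. In that setting p values were adjusted together with the other values recomputed without the neighbours, not within the J or V genes. Calls near the threshold, such as Trbj1-3 (unadjusted p = 0.0205, exact permutation test), are therefore not directly comparable with those above. The J gene trimmed less was then Trbj2-1 (-0.23 nt), and those trimmed more were Trbj1-3 (0.064 nt) and Trbj2-5 (0.17 nt). Trbj1-4 (-0.15 nt) and Trbj2-7 (-0.066 nt) did not pass the threshold in that setting.

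Trbv4 is the V gene with the stop codon in its germline end, printed above. A loss of at least 3 bases removes the last base of that stop. Fewer than 3 bases were lost in 1.36% ± 0.57 of in-frame Trbv4 rearrangements, in 39.6% ± 2.497 of out-of-frame ones and in 86.5% of the 1201 Trbv4 rearrangements that were in frame with a stop codon. Trbv4 accounted for 50.8% of the stop codon class with a resolved V gene. In Trbv24, whose end holds the first bases of a possible stop, untrimmed ends made up 14.9% ± 4.397 of in-frame and 17.9% ± 2.06 of out-of-frame rearrangements, and 63.9% of the 183 in the stop codon class. Without Trbv4 the V deletion difference over all V genes was -0.49 nt.

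**Figure D4:**
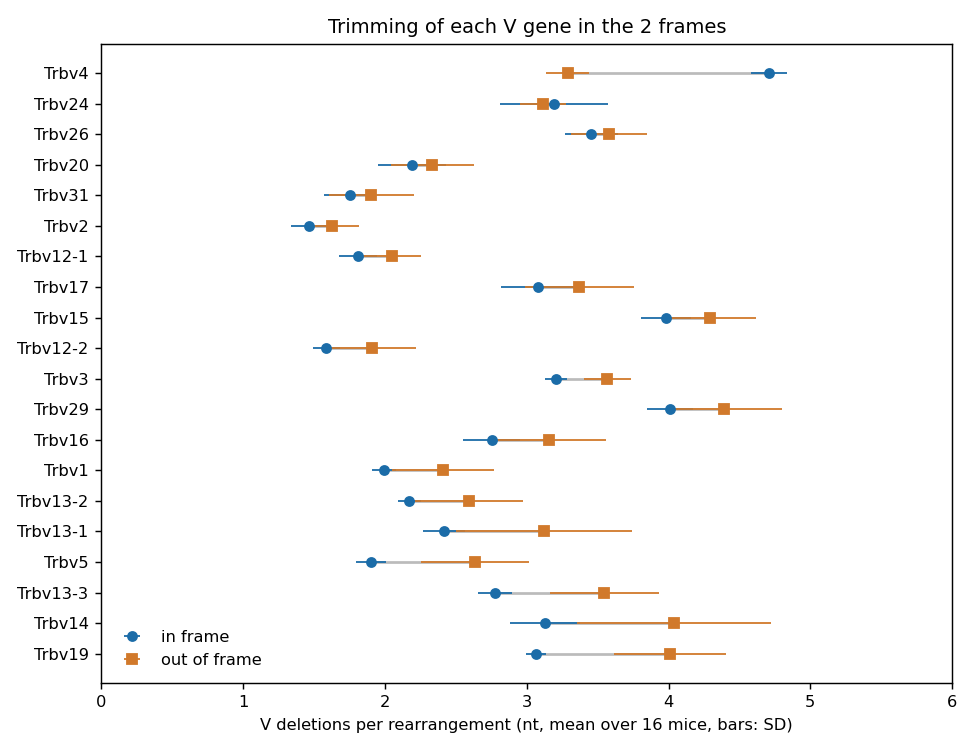
Mean V deletions per rearrangement (nt, bars are SD over 16 mice) for the 20 V genes with enough rearrangements, in frame (circles) and out of frame (squares). Trbv4 at the top is the gene trimmed more in frame, at 4.71 against 3.29 nt.

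V gene shares were compared with edgeR on counts of unique rearrangements, with the mouse as a block, and all log2 values below are shares in frame over shares out of frame. Of 27 V genes tested, 10 (37%) were more frequent in frame and 10 (37%) less, at a Benjamini-Hochberg adjusted p of at most 0.05. A share is relative, so a gene that falls raises the others. Under a scaling that assumes most genes unchanged (TMM) the counts were 9 and 11.

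Among the genes more frequent in frame, Trbv12-2 had the largest ratio. It took up 4.15% to 6.37% of in-frame rearrangements (median 5.19%) and 2.36% to 3.43% of out-of-frame ones (median 3.03%). The frames did not overlap, and the log2 ratio was 0.84 ± 0.04 (SE, edgeR adjusted p = 6.45e-20). Trbv29 followed with 4.79% ± 0.60 in frame and 3.25% ± 0.29 out of frame (log2 0.56), and Trbv3 with 7.86% ± 1.07 and 5.53% ± 0.57 (log2 0.46). The 3 genes of the Trbv13 family rose together, Trbv13-1 by 0.39, Trbv13-2 by 0.39 and Trbv13-3 by 0.38 on the log2 scale, each higher in 16 of 16 mice. Trbv13-2 was the most frequent V gene of the in-frame set, at 10.1% ± 1.12 against 7.77% ± 0.95 out of frame. Trbv14 (log2 0.22), Trbv12-1 (0.19), Trbv1 (0.12) and Trbv5 (0.085) were higher by less. Weighted by templates, the largest of these ratios was lost, since Trbv12-2 had a log2 ratio of 0.070 (edgeR adjusted p = 0.840). Trbv29 (log2 0.58), Trbv3 (0.40), Trbv13-2 (0.20), Trbv1 (0.31), Trbv5 (0.0996) and Trbv12-1 (-0.57) did not pass the threshold with that weighting either. The 4 V genes called higher with it were Trbv13-1 (0.67), Trbv13-3 (1.39), Trbv14 (1.59) and Trbv16 (0.59). Single rearrangements can weigh heavily in such ratios. In control replicate 2, 1 out-of-frame rearrangement held 7776 of 23256 out-of-frame templates. In combination replicate 3, 1 in-frame rearrangement held 10570 of 58676 in-frame templates.

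Among the genes less frequent in frame, Trbv24 had the largest shift in share. It made up 1.46% to 1.89% of in-frame rearrangements (median 1.62%) and 5.62% to 7.02% of out-of-frame ones (median 6.21%), a log2 ratio of -1.96 ± 0.04 (SE, edgeR adjusted p = 4.67e-32). The lowest out-of-frame share was above the highest in-frame share. Adding the stop codon class to the in-frame set brought Trbv24 to 1.76% ± 0.12, still below 6.24% ± 0.36 out of frame. Trbv4 was the next by share, at 3.60% to 4.99% in frame (median 4.18%) and 6.89% to 9.35% out of frame (median 7.62%), a log2 ratio of -0.90 ± 0.03. With the stop codon class added it stood at 5.09% ± 0.47, below 7.82% ± 0.74 out of frame in 16 of 16 mice (p = 3.05e-05, exact permutation test). Trbv15 fell from 4.68% ± 0.51 out of frame to 2.92% ± 0.18 in frame (log2 -0.73) and Trbv20 from 4.31% ± 0.47 to 2.97% ± 0.38 (log2 -0.56). Trbv31, which lies downstream of the other V genes in the opposite orientation, had a log2 ratio of -0.19, and Trbv26 one of -0.12. Trbv2, Trbv16, Trbv17, Trbv19, Trbv23 and Trbv30 had log2 ratios between -0.20 and 0.045 and did not pass the threshold, though without the neighbours Trbv16 (0.11), Trbv19 (0.095) and Trbv30 (-0.43) did. Trbv19 has no settled direction, since its log2 ratio was -0.029 with all rearrangements and -0.063 under TMM scaling, where it was called lower (edgeR adjusted p = 0.0376). Under TMM scaling Trbv5 (0.051) did not pass the threshold. Weighted by templates, Trbv26 (-0.24) did not pass it, while Trbv17 (-0.69) and Trbv30 (-0.75) did.

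A list of 13 V genes taken as unable to encode a working receptor chain was drawn from general knowledge of C57BL/6 mice, with earlier results of these data known, so its direction is a description. Together the genes took up 0.430% ± 0.124 of in-frame and 1.65% ± 0.22 of out-of-frame rearrangements, lower in frame in 16 of 16 mice. Of the 13, 5 passed the minimum of 10 rearrangements. Of these 5, 4 were called lower in frame, beside 10 (37%) of the 27 V genes tested, which include them. Their median log2 ratio was -1.61, beside -0.03 over the 27. Trbv21 fell from 0.810% ± 0.139 out of frame to 0.200% ± 0.051 in frame (log2 -2.02 ± 0.09), and Trbv22 from 0.619% ± 0.126 to 0.162% ± 0.060 (log2 -2.01 ± 0.10). Trbv27 (log2 -1.61) and Trbv10 (-1.54) were lower as well, and Trbv9, with 3 in-frame and 7 out-of-frame rearrangements, had a log2 ratio of -1.42 that did not pass the threshold (edgeR adjusted p = 0.0607, and 0.0239 without the neighbours). The other 8 genes had 9 in-frame and 27 out-of-frame rearrangements between them. The RefSeq annotation gives another list, also of 13 genes, which has Trbv29 as a pseudogene and Trbv21 as a V segment, and the direction depends on that choice. The RefSeq pseudogenes took up 5.02% ± 0.57 of in-frame and 4.09% ± 0.30 of out-of-frame rearrangements, higher in frame in 15 of 16 mice. Of their 6408 in-frame rearrangements, 6137 were of Trbv29, which was the more frequent in frame in 16 of 16 mice. The 12 genes common to both lists took up 0.230% ± 0.089 in frame and 0.844% ± 0.145 out of frame, lower in frame in 16 of 16 mice.

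**Figure D5:**
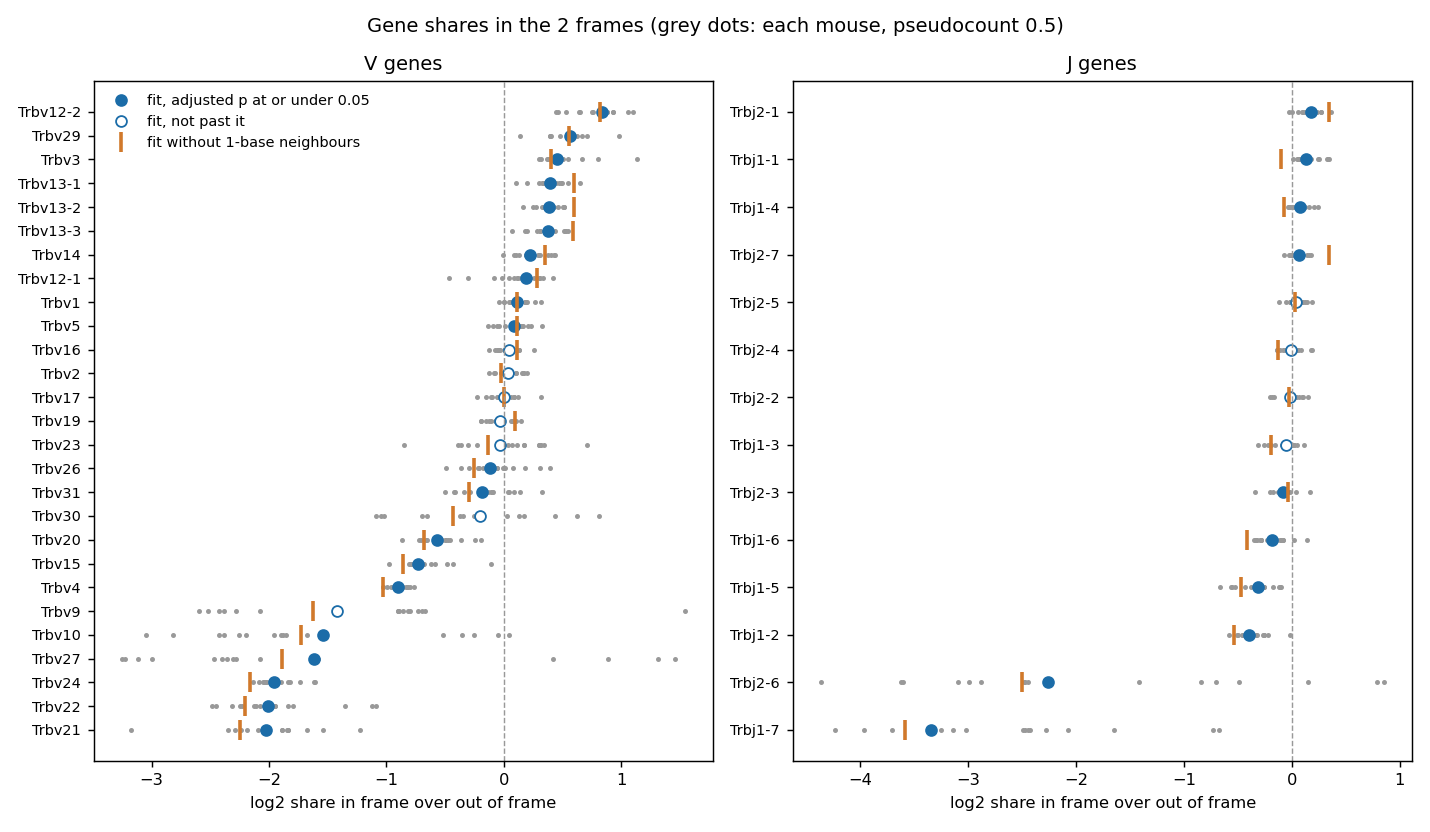
Share in frame over share out of frame (log2) for the 27 V genes and 14 J genes tested. Large circles are edgeR estimates (filled when the adjusted p was at most 0.05), grey dots are mice with 0.5 added to each count, and orange ticks are estimates without out-of-frame neighbours. Trbv24, Trbv22 and Trbv21 lie near -2, Trbv12-2 lies highest at 0.84, and Trbj1-1 and Trbj1-4 change sides between circle and tick.

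Genes with the same coding end need not have the same ratio. There were 3 pairs of V genes with identical germline ends, and their names rest on bases of the 87-nt sequence upstream of the ends. Trbv12-2 exceeded Trbv12-1 by 0.67 ± 0.20 on the log2 scale in 16 of 16 mice (adjusted p over the 3 pairs 9.16e-05, exact permutation test). Trbv13-1 and Trbv13-3 differed by 0.032 ± 0.20 (adjusted p = 0.532, exact permutation test), and Trbv2 and Trbv5 by -0.049 ± 0.15 (adjusted p = 0.319, exact permutation test).

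J gene shares were compared in the same way. Of 14 J genes tested with edgeR, 4 (28.6%) were more frequent and 6 (42.9%) less frequent in frame, against 5 and 5 with TMM scaling. The largest drops were in the segments that cannot encode a normal J region. Trbj1-7 was found in 4 in-frame and 36 out-of-frame rearrangements (log2 -3.34 ± 0.46), and the pseudogene Trbj2-6 in 12 and 37 (log2 -2.26 ± 0.39). A further 23 Trbj1-7 rearrangements, and 0 of Trbj2-6, were in the stop codon class, which the in-frame set leaves out. The Trbj1-7 ratio with that class added was not computed. RefSeq lists Trbj1-7 as a J segment, not a pseudogene. Of the common J genes, Trbj1-2 fell from 6.06% to 8.04% out of frame (median 7.16%) to 4.84% to 6.64% in frame (median 5.44%), a log2 ratio of -0.40 ± 0.03 and lower in 16 of 16 mice although the ranges overlapped. Trbj1-5 (log2 -0.31), Trbj1-6 (-0.19) and Trbj2-3 (-0.083) were lower as well. Trbj2-1 was higher, at 13.02% ± 0.76 in frame against 11.6% ± 0.89 out of frame (log2 0.18), and so was Trbj2-7, the most frequent J gene, at 21.2% ± 0.90 against 20.5% ± 1.28 (log2 0.064). Weighted by templates, Trbj2-1 (log2 0.35) and Trbj1-5 (-0.098) did not pass the threshold.

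The J gene values depended on the neighbours. With them the Trbj1 cluster made up 32.6% ± 0.79 in frame and 34.5% ± 1.29 out of frame, and without them it made up 39.3% ± 1.57 out of frame, so that the difference grew from -1.87 to -6.72 percentage points, lower in frame in 16 of 16 mice either way. Trbj2-7 went from a log2 ratio of 0.064 to 0.35 and Trbj2-1 from 0.18 to 0.34. Trbj1-1 went from 0.13 to -0.097 and Trbj1-4 from 0.072 to -0.077, both past the threshold on either side of 0, so no direction is given for them. Trbj1-6 went from -0.19 to -0.42, and Trbj2-3 from -0.083 to -0.034, which did not pass the threshold. Trbj1-3 (log2 -0.19) and Trbj2-4 (-0.13) passed it only without the neighbours. Among the 20 V genes past the threshold with all rearrangements no sign changed without the neighbours, and of the others Trbv19 (to 0.095) and Trbv2 (from 0.036 to -0.020) turned. The Trbv13 genes rose to ratios of 0.60, 0.60 and 0.59, Trbv14 to 0.35, Trbv31 went to -0.30 and Trbv26 to -0.25, and Trbv24 went from -1.96 to -2.16.

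The reading frames of the D segments were used unequally in the in-frame set. Frames were numbered by the germline base of D at which the first codon, counted from the V cysteine, began. Trbd2 was read in frame 3, which gives Asp-Trp-Gly-Gly, in 42.0% ± 1.65 of in-frame and 37.1% ± 1.65 of out-of-frame rearrangements, higher in frame in 16 of 16 mice. Trbd2 frame 1, which gives Gly-Thr-Gly-Gly, was read in 28.0% ± 1.77 and 30.7% ± 1.11, and frame 2, which gives Gly-Leu-Gly-Gly, in 29.95% ± 0.97 and 32.2% ± 1.46 (33.6% out of frame without the neighbours). For Trbd1 the preferred frame was 1 (Gly-Thr-Gly-Gly), with 35.7% ± 1.16 in frame and 31.7% ± 1.22 out of frame, while frame 2 was lower in frame (30.3% against 33.4%) and frame 3 was 33.98% ± 1.08 against 34.9% ± 0.84. All 6 frame comparisons passed the threshold, with adjusted p values up to 0.0113 (exact permutation test). The share of Trbd1 among rearrangements with a D gene was 51.9% ± 1.24 in frame and 52.9% ± 2.59 out of frame, and the difference of -1.01 ± 3.36 percentage points did not pass the threshold.

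The frame differences were then compared between the 4 treatment groups. The in-frame minus out-of-frame CDR3 length was -0.35 ± 0.19 nt in control, -0.52 ± 0.21 nt in ANT008, -0.23 ± 0.032 nt in anti-PD-1 and -0.23 ± 0.079 nt in combination mice (n = 4 each). An exact permutation test over all partitions of the mice gave an unadjusted p of 0.0433 and an adjusted p of 0.320 over the 8 junction measures. The number of measures past the threshold was 0 of 8, and CDR3 length was the only one with an unadjusted p under 0.05. For V genes, 0 of 27 (0%) had a frame difference that varied between treatments in edgeR, with 1 gene, Trbv13-3, at an unadjusted p under 0.05, and 0 by DESeq2. For J genes the count was 0 of 14 (0%), with 0 at an unadjusted p under 0.05 by either tool. A p that misses the threshold at 4 mice per group does not show that the groups were alike.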

How the data were processed

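TCRβ rearrangements were sequenced by Adaptive Biotechnologies (immunoSEQ, mouse TCRB, survey level) and deposited as 1 entry per unique 87-nt rearrangement. Per the file headers, each entry gave a template count (a whole-number count made by the service, with a correction for primer bias), a reading frame, V, D and J genes, and other values in bases: CDR3 length, insertions, deletions and positions. The columns for sequencing reads were empty, so read depth is unknown. No genome build is named, and no coordinates are given. Total templates ranged from 11317 to 99411 per mouse. The n1 bases lay between V and D in 100% of entries with all parts.

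Members and gene lists were chosen with earlier results of these data known. Entries in frame and out of frame were summarised per mouse, and the 16 paired differences were tested by sign flips (65536 of them, two-sided). Gene names were matched to the RefSeq GRCm38.p6 annotation (35 of 35 V and 14 of 14 J names). Rearrangements without a resolved gene (102 in-frame and 14 out-of-frame for V, 149 and 93 for J) were left out of gene tests. Counts per gene were fitted with edgeR 4.0.16 (quasi-likelihood, mouse as block, library size fixed at resolved rearrangements, at least 10 rearrangements in all). On simulated data with 27 V genes, 80 of 80 shifted genes and 9 of 460 unshifted ones were called, and with 14 J genes, 80 of 80 and 4 of 200. Shifted genes were drawn from the commoner ones and moved by set steps. Recovery was therefore not measured for rare genes or for the smallest ratios called. Group differences were tested over 2627625 partitions or an edgeR F test. Without the neighbours, exact tests of length steps, gene lists, D frames, base composition and trimming within genes were adjusted together. DESeq2 1.42.0, R 4.3.3, Python 3.11.15 and numpy 2.4.6 were used. Named V genes were the 8 highest and 8 lowest past the threshold and the unusable list; other V genes past the threshold are named by their values as well. Germline ends are the most frequent untrimmed sequence. The mice are separate animals per the labels.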

Additional observations from a re-analysis of the deposited data

Results flagged for a closer look

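In 8 of 160 combinations of a measure or gene with a treatment group of 4 mice, 1 mouse stood apart from the other 3 by Dixon's criterion, and chance gives about 1 in 20. No explanation was tested for any of them. For the in-frame minus out-of-frame CDR3 length, combination replicate 1 had -0.115 nt, against -0.283 to -0.255 nt in the other combination mice. For the SD of the length, combination replicate 2 had -0.793 nt, against -0.535 to -0.483 nt. Differences in gene share, in percentage points, stood apart for Trbv22 in combination replicate 1 (-0.687, others -0.450 to -0.420), for Trbv4 in control replicate 3 (-3.79, others -3.32 to -3.27), for Trbj1-5 in control replicate 3 (-0.427, others -1.46 to -1.41), for Trbj1-6 in combination replicate 4 (0.346, others -0.719 to -0.656), for Trbj2-3 in anti-PD-1 replicate 4 (1.00, others -0.441 to -0.216) and for Trbj2-4 in ANT008 replicate 3 (1.02, others -0.359 to -0.202).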

How the results depend on the processing

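Leaving out each of the 16 mice in turn changed no call or direction of the 8 junction measures and moved no count of genes called by over 1.5 times. Among named genes it turned the sign of Trbj2-2 (log2 -0.035 to 0.0012) and Trbj2-4 (log2 -0.021 to 0.0071), which did not pass the threshold in any case. The cause of the changes below was not tested. Of the junction measures, the J deletions difference was 0.297 nt weighted by templates, 0.0296 nt without rearrangements of 1 template, 0.0687 nt without the neighbours, -0.0785 nt against the stop codon class, 0 nt as a median and -0.0313 nt with out-of-frame lengths 1 over a multiple of 3 (this last chosen after seeing the data). The D deletions difference was 0.120 nt weighted by templates, 0.125 nt as a median and -0.192 nt against the stop codon class, the V deletions difference was 0.478 nt against that class, of which Trbv4 makes up 50.8%, and the share without insertions differed by 2.31 points weighted by templates. With equal V gene mix or equal J gene mix in the 2 frames, without Trbv4 and with out-of-frame lengths 2 over a multiple of 3 (the last 2 chosen after seeing the data), the 8 measures kept their direction and their call.

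Weighted by templates, V genes higher in frame numbered 4 and J genes called numbered 6, of which 1 was higher, and log2 ratios turned for Trbv12-1 (-0.57), Trbj1-1 (-0.39), Trbj1-4 (-0.041), Trbj2-2 (0.089) and Trbj2-3 (0.019). Without rearrangements of 1 template they turned for Trbv12-1 (-0.057), Trbj1-1 (-0.018), Trbj1-4 (-0.039), Trbj2-2 (0.033) and Trbj2-3 (0.024). Against the stop codon class, 17 V genes were higher and 5 lower, 5 J genes were called with 2 lower, and Trbv20 (0.56), Trbj1-1 (-0.13), Trbj2-5 (-0.069) and Trbj2-6 (2.08) turned, the last against 0 rearrangements in that class, so that its ratio has no settled sign. Shares are relative and Trbv4 makes up 50.8% of that class, which lowers the shares of the other V genes in it. Ratios against that class without Trbv4 were not computed, so the V counts and the turn of Trbv20 give no direction. TMM turned Trbj2-2 (0.027) and Trbj2-4 (0.040). Without the neighbours 2 J genes were higher, and Trbj1-1 (-0.097), Trbj1-4 (-0.077), Trbv19 (0.095) and Trbv2 (-0.020) turned. With RefSeq's pseudogenes in place of the list of unusable V genes, chosen after seeing the data, the difference turned from -1.22 to 0.928 points, and the 12 genes common to both gave -0.614 points. Other sign changes without the neighbours came in tests chosen after seeing the data. They were in the share with no D gene (-0.537 points), the G or C share of n2 (0.138 points), and 5′ (0.114 nt) and 3′ (-0.042 nt) D deletions. V deletions of Trbv2 (0.0032 nt) turned as well, and so did J deletions of Trbj1-2 (0.060 nt), Trbj1-3 (0.064 nt), Trbj2-2 (0.111 nt) and Trbj2-5 (0.172 nt).

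The replicate numbers of the labels only name samples, since the deposited sample names carry other numbers and 7 of 24 same-numbered pairs of different groups had correlations of V gene deviations over 0.1, against 37 of 72 other pairs. With the replicate block, 0 of 27 V genes, 0 of 14 J genes and 0 of 8 junction measures had a frame difference between treatments, and the lowest adjusted p was 0.233, 0.584 and 0.285 (edgeR for genes, exact permutation for measures), against 0.699, 0.491 and 0.320 without it. Depth limits the rare genes: Trbv9 had 10 rearrangements in the 2 frames.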
